A study of Mus musculus with 9 samples.

Results

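The genes described here are 10 angiogenic ligand and apelin genes: Vegfa, Vegfb, Vegfc and Pgf of the VEGF family, the angiopoietins Angpt1 and Angpt2, the angiopoietin-like gene Angptl4, the fibroblast growth factor gene Fgf2, the apelin gene Apln and its receptor gene Aplnr. They were chosen by gene name, and all 10 were found among the 21124 genes of the deposited count tables, each on 1 row. The study counted messenger RNA in penile tissue of rats 4 weeks after surgery, in 3 groups of 3 libraries. Sham rats had the operation without damage to the major pelvic ganglia, which supply autonomic nerves to the penis. In the Injury rats the ganglia of both sides were clamped, a model of neurogenic erectile dysfunction. The Sacral NC rats had the same clamping and then received sacral neural crest cells, which the series title describes as made from human pluripotent stem cells (hPSC). No label names a mock transplant in the Injury rats, so the cells and the transplant procedure cannot be told apart. No label gives the strain or age of the rats, or the route by which the cells were delivered.

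VEGF proteins signal to endothelial cells through tyrosine kinase receptors: VEGF-A acts mainly through KDR, VEGF-B and placental growth factor bind FLT1, and VEGF-C acts on lymphatic vessels through FLT4. The angiopoietins share the receptor TEK (also called TIE2). Angiopoietin 1, made largely by cells around the vessel, activates TEK and keeps vessels quiet, and angiopoietin 2, made by endothelium, can oppose it. Apelin is a secreted peptide that endothelial cells make when vessels sprout, and its receptor is a G protein coupled receptor of vessels. The penis is rich in vascular spaces lined by endothelium and surrounded by smooth muscle, and erection depends on both.

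Total counts ran from 15442190 to 18283418 per library. The labels name pluripotent stem cells as the cell type and a cell line as the source, while the tissue field names penile tissue. Pou5f1, Lin28a and Dppa4, genes of pluripotent stem cells, reached no more than 2, 4 and 9 reads per library, whereas the smooth muscle genes Myh11 and Acta2 had at least 7426 and 8281, so the libraries were read as penile tissue. Skeletal muscle markers took over 0.1 % of the reads in 4 libraries, Sham 1, Injury 1, Injury 2 and Sacral NC 2, with 2.47 % in Injury 2 as the highest. Smooth muscle markers ran from 0.182 % of reads in Sacral NC 1 to 0.986 % in Sacral NC 2. Collagen genes took 15.1 to 18.6 % of reads in Injury, against 3.77 to 4.52 % in Sham and 2.15 to 5.20 % in Sacral NC. The 9 endothelial markers together took 0.0650 to 0.0752 % of reads in Injury, 0.133 to 0.149 % in Sham and 0.124 to 0.173 % in Sacral NC. In bulk tissue, fewer cells of a type and less RNA per cell cannot be told apart.

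None of the 10 genes was called changed in any of the 3 comparisons by the edgeR quasi-likelihood test at a Benjamini-Hochberg adjusted p under 0.05. Over all 15509 genes tested, that test called 4.43 % in Injury against Sham (3.09 % higher, 1.34 % lower), 6.96 % in Sacral NC against Injury (3.26 % higher, 3.7 % lower) and 0 % in Sacral NC against Sham. At an unadjusted p under 0.05 the count of the 10 genes was 2, 5 and 2, beside 21.9 %, 26.6 % and 7.94 % of all genes. DESeq2, another count test, called 2, 2 and 0 of them, beside 9.79 %, 14 % and 0.374 % of all genes. Median log2 changes over the 10 genes were −0.05, −0.04 and 0.01, where those over all genes were −0.04, 0.03 and 0.00. The authors' deposited table has 2, 2 and 0 of them under 0.05, beside 10 %, 14.8 % and 0.359 % of all genes. The comparisons share groups of libraries and are given side by side.

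Libraries of the compared groups did not overlap for 2 of the 10 genes in Injury against Sham, with Vegfb higher and Pgf lower. Over all genes this held for 35.3 %, with 15.4 % higher and 19.9 % lower. For Sacral NC against Injury it held for 5 of the 10, with Pgf and Angptl4 higher and Vegfa, Vegfb and Apln lower, beside 26.4 % of all genes, 14.1 % higher and 12.4 % lower. For Sacral NC against Sham it held for 2, with Angptl4 higher and Apln lower, beside 13.3 % of all genes, 6.72 % higher and 6.53 % lower.

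**Figure D1:**
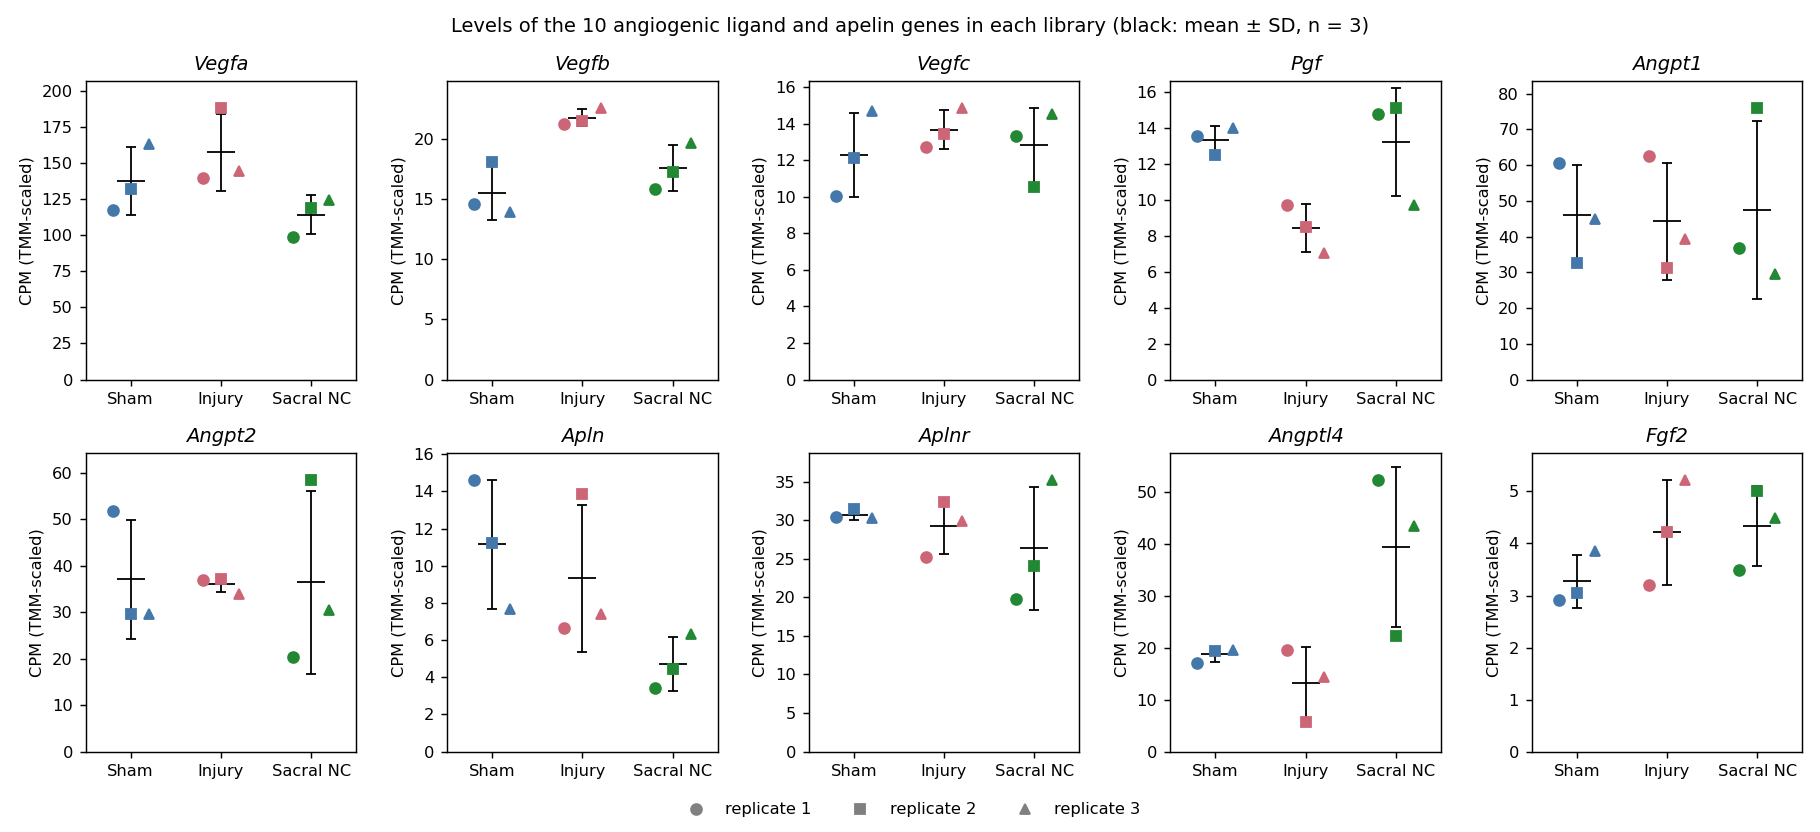
Level of each of the 10 genes in CPM (TMM-scaled, vertical axis from 0) in the 9 libraries, by group. Symbols mark the replicates, and black bars give the mean and SD of 3 libraries. Injury libraries of Vegfb lie above and those of Pgf below all Sham libraries, and Sacral NC libraries of Angptl4 lie above and those of Apln below all other libraries.

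Among the VEGF family ligands, Vegfb and Pgf did not overlap with Sham after clamping, in opposite directions, and neither passed the test. Such a lack of overlap held for 35.3 % of all genes. Levels below are in CPM, counts scaled to a common library size after TMM scaling, which corrects for libraries in which a few genes take many reads. Levels are compared between libraries and not between genes, since no transcript lengths were used.

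Vegfb (ENSRNOG00000021156, chromosome 1, 204172225 to 204177944) encodes a ligand of FLT1 linked to heart and muscle. Its level was 14.55, 18.04 and 13.9 CPM in Sham 1, 2 and 3, and 21.2, 21.5 and 22.5 CPM in Injury 1, 2 and 3. In Sacral NC it was 15.8, 17.3 and 19.6 CPM. Every Injury library lay above every library of the other groups, while Sham and Sacral NC overlapped. The log2 change of Vegfb was 0.49 ± 0.13 (SE) in Injury against Sham, a 1.40-fold higher level, with an adjusted p of 0.0754 by edgeR. Between Sacral NC and Injury it was −0.31 ± 0.13 (adjusted p = 0.177 by edgeR). DESeq2 gave Vegfb an adjusted p of 0.015 in Injury against Sham, and an edgeR fit of these groups alone gave 0.0445, where 9.55 % of all genes were called. The authors' deposited table has an adjusted p of 0.0146 for the same comparison.

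Pgf (ENSRNOG00000005650, chromosome 6, 104816104 to 104826685) encodes placental growth factor, a ligand that binds FLT1 and not KDR. It had 251, 226 and 247 reads in Sham, 149, 123 and 115 in Injury, and 246, 248 and 156 in Sacral NC. These are 13.6, 12.5 and 14.004 CPM in Sham, 9.73, 8.53 and 7.06 CPM in Injury, and 14.8, 15.1 and 9.74 CPM in Sacral NC. All Injury libraries were lower than those of both other groups, with Sacral NC 3 at 9.744 just above Injury 1 at 9.734. The log2 change of Pgf was −0.66 ± 0.20 (SE) in Injury against Sham (adjusted p = 0.0984 by edgeR) and 0.65 ± 0.20 in Sacral NC against Injury (adjusted p = 0.0854 by edgeR). Against Sham, the Sacral NC level differed by −0.02 ± 0.20 on the log2 scale, with a 95% interval from −0.46 to 0.43. The other test, DESeq2, put both changes under the threshold, with adjusted p of 0.0467 and 0.038, and the authors' deposited table has 0.0457 and 0.03645. By edgeR without Sacral NC 3, the lowest library of its group, Pgf was called higher in Sacral NC than in Injury (log2 change 0.80, adjusted p = 0.0499), where 3.02 % of all genes were called.

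Vegfa (ENSRNOG00000019598, chromosome 9, 14955300 to 14970641), the main growth factor of blood vessels, had between 1645 and 2876 reads per library. Its level was 117, 132 and 163 CPM in Sham, 140, 188 and 144 CPM in Injury, and 98.9, 119 and 125 CPM in Sacral NC. The highest value was that of Injury 2, the library with the most skeletal muscle reads, while Sham 1, also rich in them, was the lowest Sham library. Sham overlapped with both other groups, and all Sacral NC libraries lay below all Injury libraries. The log2 change of Vegfa was −0.46 ± 0.16 (SE) in Sacral NC against Injury (adjusted p = 0.121 by edgeR) and 0.19 ± 0.16 in Injury against Sham (adjusted p = 0.519). The latter was 0.05 without Injury 2, and 0.01 without the 4 libraries rich in skeletal muscle reads.

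Vegfc (ENSRNOG00000011416, chromosome 16, 37712262 to 37827848), the lymphatic growth factor gene, varied least of the 10 genes, from 10.1 CPM in Sham 1 to 14.85 CPM in Injury 3. Its groups overlapped in every comparison. The 95% intervals of its log2 change ran from −0.25 to 0.56 in Injury against Sham, from −0.50 to 0.31 in Sacral NC against Injury, and from −0.34 to 0.46 in Sacral NC against Sham.

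Angptl4 and Apln were the members that lay furthest from both other groups in the Sacral NC rats, Angptl4 higher and Apln lower. Neither passed the test over all genes.

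Angptl4 (ENSRNOG00000007545, chromosome 7, 14550311 to 14556519) encodes a secreted inhibitor of lipoprotein lipase that is induced by fasting, PPAR factors and low oxygen. It had 317, 351 and 345 reads in Sham, 299, 82 and 233 in Injury, and 869, 366 and 696 in Sacral NC. In CPM these are 17.1, 19.4 and 19.6 in Sham, 19.5, 5.68 and 14.3 in Injury, and 52.3, 22.3 and 43.5 in Sacral NC. Sham libraries lay close together, Injury 2 was the lowest of all libraries, and Sacral NC 2 was only slightly above the highest library of the other groups. Its range across libraries was 9.19-fold, the widest of the 10 genes, and its SD of log2 CPM was at or above that of 93.1 % of all tested genes. In Sacral NC against Injury the log2 change of Angptl4 was 1.58 ± 0.44 (SE), a 2.98-fold higher mean, with an adjusted p of 0.0674 by edgeR. Sacral NC against Sham gave 1.07 ± 0.43 (adjusted p = 0.614), and Injury against Sham −0.50 ± 0.43 (adjusted p = 0.524).

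The call on Angptl4 depended on 1 library and on the test. Without Sacral NC 2 its log2 change against Injury was 1.86 and passed (adjusted p = 0.0205 by edgeR), in a fit that called 22.6 % of all genes. DESeq2 also called it over the full set (adjusted p = 0.00383), as does the authors' deposited table (0.00364). With a skeletal or smooth muscle score in the edgeR fit, the log2 change was 1.25 or 1.23, with adjusted p of 0.164 and 0.154. Without the 4 libraries rich in skeletal muscle reads it was 1.69 ± 0.17 (SE; adjusted p = 0.0579), in a fit where Injury has 1 library, assumed to vary like the others. The 8 adipocyte markers took 0.0163, 0.00879 and 0.00807 % of reads in Injury 1, 2 and 3, and 0.0172, 0.0150 and 0.0229 % in Sacral NC 1, 2 and 3, against 0.0166 to 0.0190 % in Sham. Most of these reads were of Pnpla2 and Lipe, lipases that other tissues express too, which fell in Injury against Sham (log2 change −0.77 and −0.76) and rose in Sacral NC against Injury (0.79 and 0.65, adjusted p from 0.00717 to 0.0249 by edgeR over both comparisons). The fat-specific markers Adipoq, Plin1, Cidec and Retn had the opposite sign, with log2 changes from 1.13 to 1.34 and from −2.57 to −1.70, and did not pass. Cfd, another adipocyte marker with 159 to 1635 reads per library, had the sign of Pnpla2 and Lipe and did not pass either. Over the 7 adipocyte markers tested the median log2 change was 1.13 in Injury against Sham, with 4 above 0 and 3 below. It was −1.70 in Sacral NC against Injury, with 3 above 0 and 4 below. Macrophage markers took 0.0853, 0.0210 and 0.148 % in Sacral NC 1, 2 and 3, 0.0202 to 0.0311 % in Injury, and 0.0431 to 0.0743 % in Sham. The part of either cell type in the Angptl4 values was not tested.

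Of other genes that PPAR factors induce, edgeR called 0 of 12 tested in Injury against Sham and in Sacral NC against Injury. Over all genes these shares were 4.43 % and 6.96 %. At an unadjusted p under 0.05 by edgeR there were 1 and 4, beside 21.9 % and 26.6 % of all genes. DESeq2 called 0 and 3, beside 9.79 % and 14 % of all genes. The 12 PPAR-induced genes had median log2 changes of −0.14 and 0.28. Those with the smallest p in Sacral NC against Injury were Fabp4, a fatty acid binding protein gene of fat and capillaries (log2 change 1.20 ± 0.34, adjusted p = 0.0732 by edgeR), and Pdk4, which restrains glucose oxidation (0.95 ± 0.27, adjusted p = 0.0737). Both had no overlap between the groups, which held in the higher direction for 14.1 % of all genes.

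Apln (ENSRNOG00000003984, chromosome X, 127203823 to 127213391) had 270, 203 and 135 reads in Sham, 102, 200 and 121 in Injury, and 57, 73 and 101 in Sacral NC. The deposited tables describe this identifier as apelin and give it the biotype lncRNA. Its level was 14.6, 11.2 and 7.65 CPM in Sham, 6.66, 13.9 and 7.42 CPM in Injury, and 3.43, 4.45 and 6.31 CPM in Sacral NC. Sham and Injury overlapped across a wide range, and all Sacral NC libraries lay below both. Sacral NC 3, at 6.31 CPM, was only slightly below Injury 1 at 6.66 CPM. The mean was 11.2 ± 3.48 CPM in Sham, 9.32 ± 3.96 in Injury and 4.73 ± 1.46 in Sacral NC (SD, n = 3 each), and neither difference to Sacral NC passed. The log2 change of Apln was −1.24 ± 0.37 (SE) in Sacral NC against Sham (adjusted p = 0.578 by edgeR) and −0.98 ± 0.37 in Sacral NC against Injury (adjusted p = 0.138). By unadjusted p it ranked 212 of 15509 genes in Sacral NC against Sham. Without Injury 2 the change against Injury was −0.57, and without the 4 libraries rich in skeletal muscle reads it was −0.66.

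Aplnr (ENSRNOG00000009227, chromosome 3, 70217385 to 70221050), the apelin receptor gene, had 30.3, 31.4 and 30.3 CPM in Sham, 25.3, 32.4 and 29.9 CPM in Injury, and 19.7, 24.1 and 35.2 CPM in Sacral NC. The Sham libraries were nearly equal, whereas Sacral NC held both the lowest and the highest of the 9 libraries. Its log2 change was −0.07 ± 0.20 (SE) in Injury against Sham, with a 95% interval from −0.52 to 0.38, and −0.22 ± 0.20 in Sacral NC against Sham (adjusted p = 0.864 and 0.777 by edgeR).

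**Figure D2:**
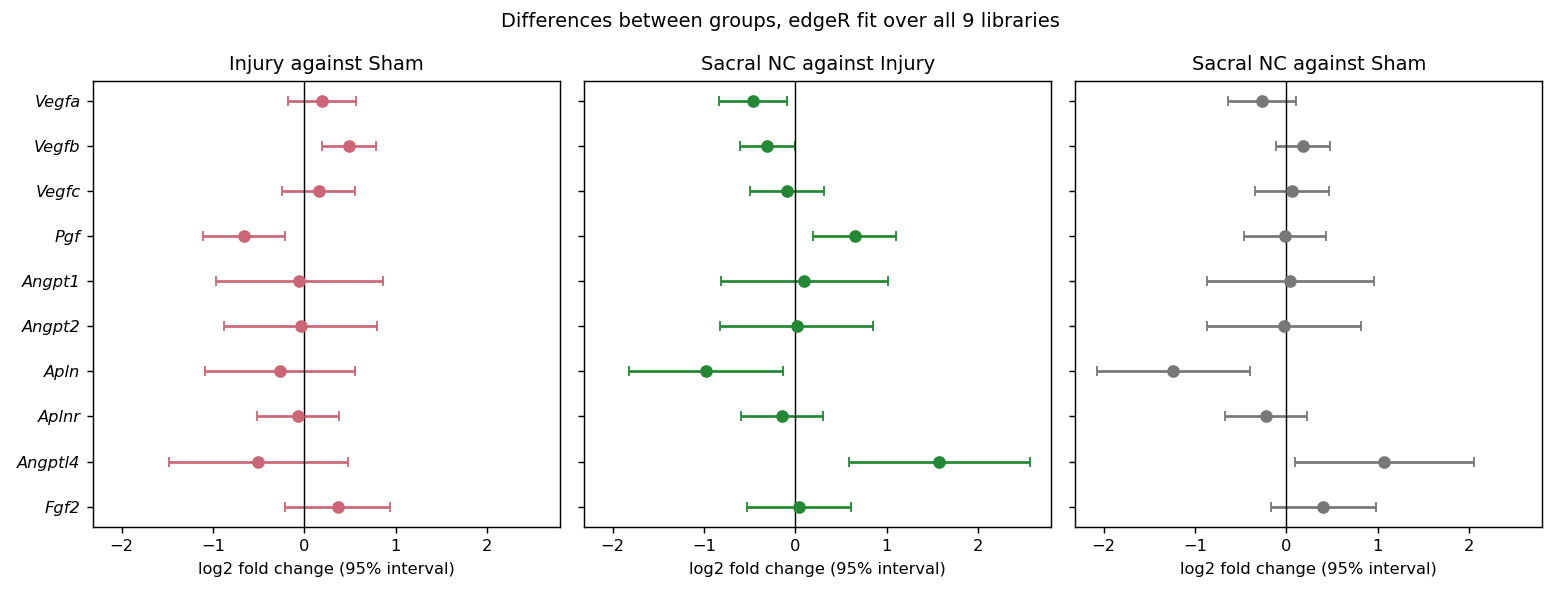
Log2 fold change of each gene (horizontal axis) in the 3 comparisons, with the 95% interval of the edgeR fit, not adjusted for the number of genes. Intervals of Vegfb and Pgf in Injury against Sham, of Vegfa, Vegfb, Pgf, Apln and Angptl4 in Sacral NC against Injury, and of Apln and Angptl4 in Sacral NC against Sham leave out 0, and no adjusted p is under 0.05.

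The angiopoietins had nearly equal group means, and their libraries differed widely within groups. Angpt1 (ENSRNOG00000005854, chromosome 7, 73531486 to 73784067) had a mean of 46.0 ± 14.1 CPM in Sham, 44.3 ± 16.3 in Injury and 47.4 ± 24.9 in Sacral NC (SD, n = 3 each). Angpt2 (ENSRNOG00000016696, chromosome 16, 71088364 to 71138804) had 37.1 ± 12.8, 36.0 ± 1.78 and 36.4 ± 19.7 CPM in the same order. The 95% intervals of the log2 change in Injury against Sham ran from −0.97 to 0.86 for Angpt1 and from −0.88 to 0.80 for Angpt2. Angpt2 lies over the annotated gene Mcph1 on the other strand, which had 37 to 86 reads per library, and reads of such partners cannot be told apart if the counting did not use strand.

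The level of Angpt2 moved with the smooth muscle score of the library. It was 58.4 CPM in Sacral NC 2 and 51.9 CPM in Sham 1, the libraries with the highest smooth muscle score, and 20.3 CPM in Sacral NC 1, the library with the lowest. The other 6 libraries had 29.7 to 37.2 CPM. Sacral NC 2 and Sham 1 are also among the 4 libraries rich in skeletal muscle reads, as are Injury 1 and Injury 2, at 36.9 and 37.2 CPM. The score is the mean log2 CPM of 8 smooth muscle markers, and it ran from 7.19 in Sacral NC 1 to 9.66 in Sacral NC 2. In a fit with the groups and the score, chosen after the values were seen, the log2 level of Angpt2 rose by 0.61 ± 0.05 (SE) per unit of score (adjusted p = 0.001465 by edgeR). Over all genes, 2.67 % were called for this coefficient. Without Sacral NC 2 it was 0.64 ± 0.09 and did not pass (adjusted p = 0.14), and without any other single library it passed. With the score held equal, the log2 change of Angpt2 was −0.27 ± 0.09 (SE) in Injury against Sham, 0.29 ± 0.09 in Sacral NC against Injury and 0.019 ± 0.083 in Sacral NC against Sham. The adjusted p by edgeR were 0.113, 0.105 and 0.954, and the unadjusted p of the first pair were 0.0136 and 0.0116.

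Angpt1 was 75.9, 62.6 and 60.6 CPM in Sacral NC 2, Injury 1 and Sham 1, the libraries with the highest smooth muscle scores, and 29.5 to 44.8 CPM in the other 6. Sacral NC 2, Injury 1 and Sham 1 are also among the 4 libraries rich in skeletal muscle reads. Injury 2, the remaining one, had 31.1 CPM. The smooth and skeletal muscle scores were not fitted together. The smooth muscle coefficient of Angpt1 was 0.50 ± 0.15 per unit of score and did not pass (adjusted p = 0.13 by edgeR), while DESeq2 gave an adjusted p of 0.019. None of the other 8 genes passed for the smooth muscle score, and none of the 10 for the skeletal muscle score, for which 1.29 % of all genes were called. Vegfc for the smooth muscle score, and Vegfc and Angpt2 for the skeletal muscle score, had an unadjusted p under 0.05.

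**Figure D3:**
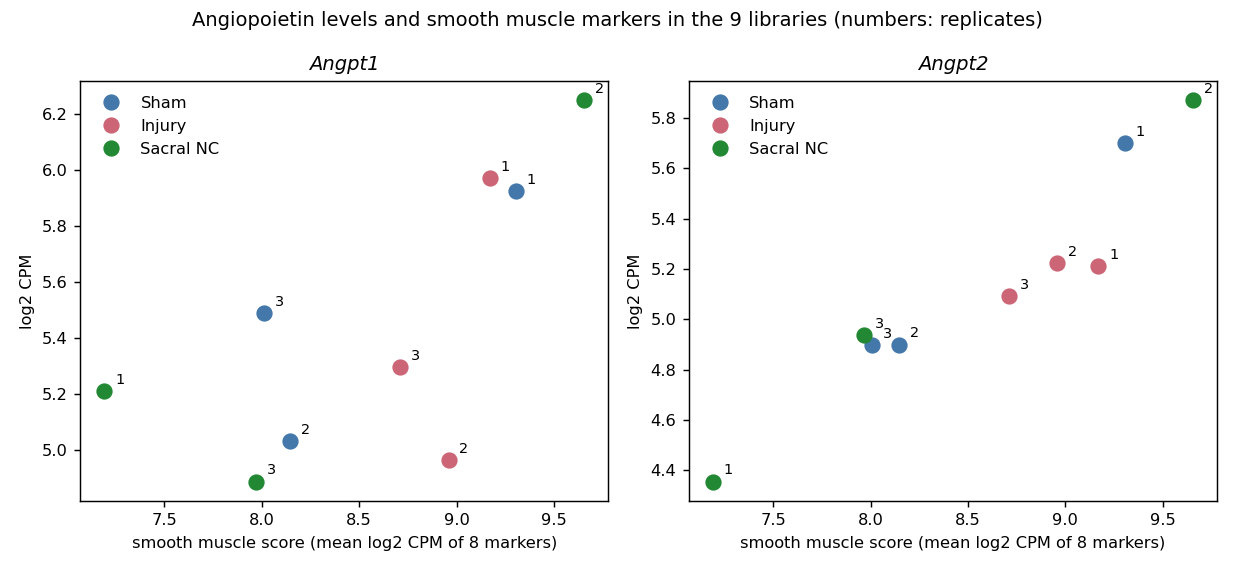
Log2 CPM of Angpt1 and Angpt2 (vertical axes) against the smooth muscle score (horizontal axis, mean log2 CPM of 8 markers) in the 9 libraries, coloured by group and numbered by replicate. Both genes are highest in Sacral NC 2, and Angpt2 is lowest in Sacral NC 1, the library with the lowest score.

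Fgf2 (ENSRNOG00000017392, chromosome 2, 120236328 to 120291221) encodes a growth factor of endothelium, fibroblasts and smooth muscle. It had the fewest reads of the 10 genes, 49 to 85 per library, at 2.92, 3.04 and 3.86 CPM in Sham, 3.20, 4.23 and 5.22 CPM in Injury and 3.49, 5.00 and 4.50 CPM in Sacral NC. The groups overlapped, and its log2 change was 0.37 ± 0.25 (SE) in Injury against Sham and 0.40 ± 0.25 in Sacral NC against Sham (adjusted p = 0.426 and 0.683 by edgeR). Nudt6, annotated over Fgf2 on the other strand, had 233 to 489 reads per library, more than Fgf2 itself, so the Fgf2 counts are uncertain.

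Receptors of these ligands were tested in the same edgeR fit. The difference between ligands and receptors was tested only as the ratios of reads given below. Of 12 receptor and co-receptor genes, 4 fell and 0 rose in Injury against Sham, where 4.43 % of all genes were called. The share of all genes called in Sacral NC against Injury was 6.96 %, and both shares are the background of the gene lists that follow. Without Sacral NC 2, the library whose absence raised most list counts, these shares were 8.42 % and 22.6 %, and 0.672 % in Sacral NC against Sham. Calls over all genes in Injury against Sham, 687 in the main fit, were 263, 69 and 21 without Sham 1, 2 and 3. They were 259, 166 and 113 without Injury 1, 2 and 3. In Sacral NC against Injury, 1080 calls became 285 to 730 without any 1 library other than Sacral NC 2. These are the background of the leave-out counts of all lists. The 4 that fell were Kdr (log2 change −0.78 ± 0.13), Tek (−0.77 ± 0.13), Flt1 (−0.66 ± 0.15) and Ptprb (−0.72 ± 0.12). Ptprb encodes a phosphatase that dampens TEK, and the adjusted p of the 4 ran from 0.0169 to 0.0426 by edgeR. After the transplant, against Injury, 4 rose and 0 fell, namely Kdr (1.04 ± 0.13), Tek (0.96 ± 0.13), the orphan receptor gene Tie1 (0.62 ± 0.14) and Ptprb (0.56 ± 0.12), with adjusted p from 0.00625 to 0.0339. The list's median log2 changes were −0.42 and 0.52. In Sacral NC against Sham 0 of 12 were called by edgeR, with 0 at an unadjusted p under 0.05. The co-receptor genes Nrp1 and Nrp2 and the FGF receptor gene Fgfr1 had log2 changes between −0.10 and 0.15 in the first 2 comparisons. The 4 calls in Injury against Sham became 3 without Sham 1, 1 without Injury 2 and 0 without Sham 2, Sham 3, Injury 1 or Injury 3. Without the 4 libraries rich in skeletal muscle reads Injury has 1 library, and receptor calls of that fit are not given. The 4 calls in Sacral NC against Injury became 6 without Sacral NC 2, 4 without Sham 2 and 2 without any other single library. Kdr, Tek, Flt1, Tie1 and Ptprb are genes of endothelium, and all 9 endothelial markers were lower in Injury than in Sham in every library, with 3 of 9 called.

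Ratios of reads within a library do not depend on scaling between libraries, and were computed for 10 pairs, chosen with the levels of the genes already known. Because transcript lengths differ, only the differences between libraries can be read. Vegfa over Kdr had log2 ratios of 0.44, 0.53 and 0.82 in Sham, 1.53, 1.73 and 1.48 in Injury, and −0.09, 0.40 and −0.03 in Sacral NC. No pair of groups overlapped. Kdr itself was called lower in Injury against Sham and higher in Sacral NC against Injury by edgeR, as given above. Vegfa was called in neither, with log2 changes of 0.19 and −0.46. The mean difference of the ratio was 0.98 in Injury against Sham and −1.48 in Sacral NC against Injury. Each had a two-sided exact permutation p of 0.1, the smallest that 3 against 3 libraries allow, and 0.27 after adjustment over 30 tests. Vegfc over Flt4 gave the same order, with a mean of −0.82 ± 0.23 in Sham, −0.15 ± 0.24 in Injury and −0.85 ± 0.31 in Sacral NC (SD, n = 3 each), and Injury did not overlap with the others.

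Angpt2 over Tek was −1.42, −1.47 and −1.41 in Injury and −1.56, −2.52 and −2.57 in Sham, with no overlap, while Sacral NC spread from −3.39 to −1.38. Tek was called lower in Injury against Sham by edgeR, where the log2 change of Angpt2 was −0.04. Apln over Aplnr was −2.52, −2.44 and −2.48 in Sacral NC, a spread of 0.04 (SD, n = 3), against −1.06, −1.48 and −1.98 in Sham and −1.92, −1.22 and −2.01 in Injury. Sacral NC lay below both other groups, with a mean difference of −0.97 to Sham and −0.76 to Injury. Pgf over its receptor gene Flt1 showed no such shift, with mean ratios of −3.17, −3.18 and −3.03 in Sham, Injury and Sacral NC, and all pairs of groups overlapped. Pgf over Vegfa was lower in all Injury libraries than in the others, by a mean of 0.87 below Sham on the log2 scale. The ratio of Angpt2 to Angpt1, which is often used as a sign of vessel stability, differed by 0.08 in Injury against Sham and by −0.16 in Sacral NC against Injury, within the spread of libraries (SD 0.24 to 0.51, n = 3). Vegfa over Vegfb was lower in all Sacral NC libraries than in Sham, by a mean difference of −0.45, and overlapped in the other comparisons. Angpt1 over Tek and Fgf2 over its receptor gene Fgfr1 overlapped in all comparisons. Each comparison of ratios without overlap had an exact permutation p of 0.1, the smallest possible, and 0.27 after adjustment over 30 tests. The share of all gene pairs without overlap was not computed.

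**Figure D4:**
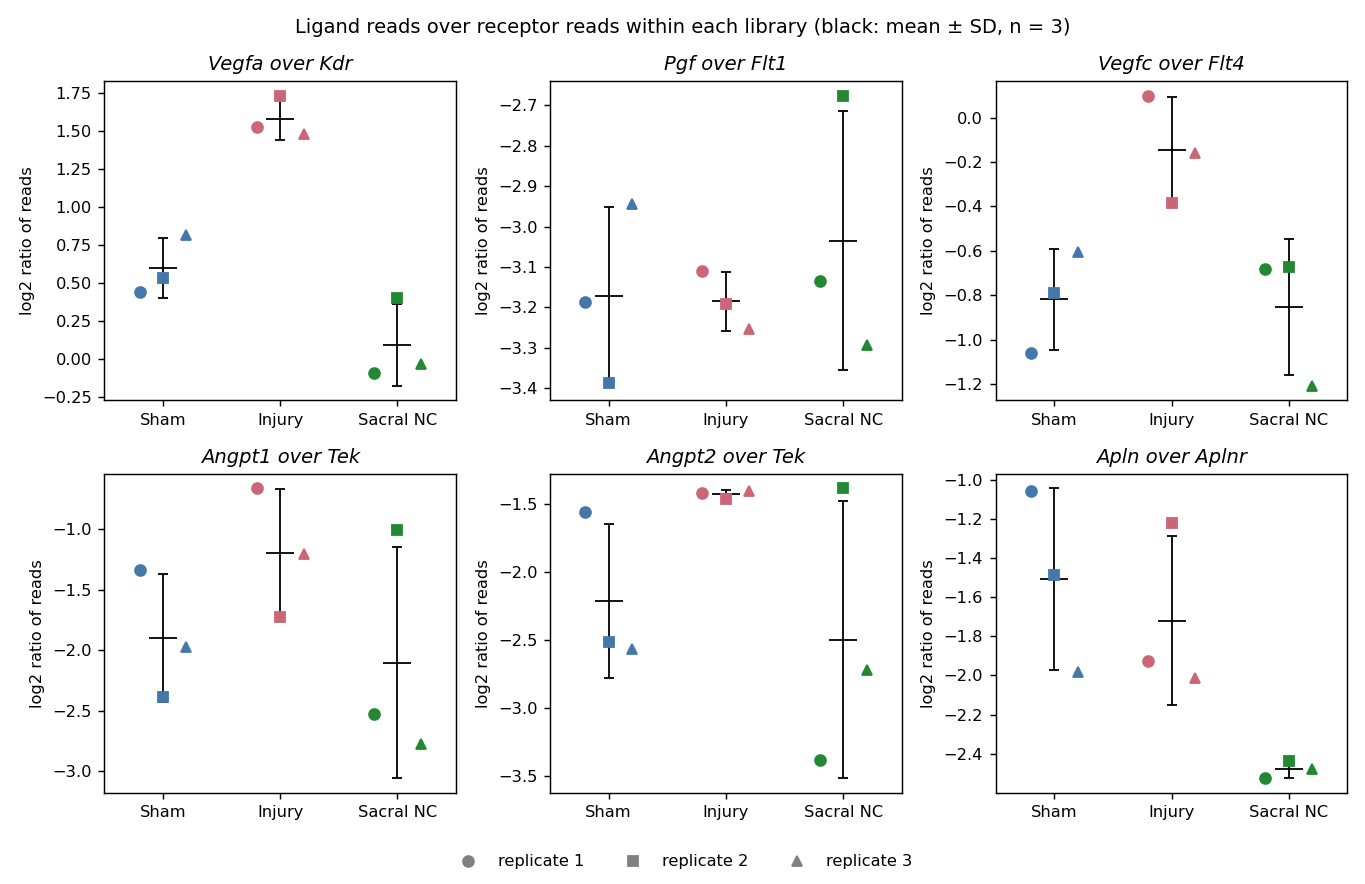
Log2 ratio of ligand reads to receptor reads (vertical axes, each with its own range) in the 9 libraries for 6 ligand and receptor pairs, by group. Bars give the mean and SD of 3 libraries. Vegfa over Kdr lies highest in Injury and Apln over Aplnr lowest in Sacral NC, with no overlap (exact permutation p = 0.1 each, 0.27 after adjustment over 30 tests).

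Of 9 related ligands tested outside the 10 genes, 2 rose and 0 fell in Injury against Sham: Angptl1 from 21.2 to 60.9 CPM (log2 change 1.52 ± 0.20, adjusted p = 0.0105 by edgeR) and Angptl2 from 209 to 464 CPM (1.15 ± 0.22, adjusted p = 0.0279). Both encode secreted angiopoietin-like proteins. Both fell in Sacral NC against Injury, by 1.52 and 1.24 on the log2 scale (adjusted p = 0.00749 and 0.0185), while Fgf7, a growth factor for epithelium, rose by 0.63 ± 0.16 (adjusted p = 0.0487). The list's median log2 changes were 0.33 and −0.16. In Injury against Sham the count of 2 was 1 without any 1 of Sham 1, Sham 2 or the 3 Injury libraries and 0 without Sham 3. Against Injury in the Sacral NC rats the count of 3 was 5 without Sacral NC 2 and 1 without Injury 1, Injury 3, Sacral NC 1 or Sacral NC 3. The fibroblast markers, 8 genes that include collagens, took 13.7 to 17.0 % of reads in Injury and 2.87 to 4.97 % in the other libraries, and their part in these changes was not tested. That share was mostly reads of the collagen genes Col1a1, Col1a2 and Col3a1, the members that rose in Injury against Sham and fell in Sacral NC against Injury. The other 5, Pdgfra, Dcn, Lum, Dpt and Pi16, did not pass, with log2 changes from −1.40 to 0.25 and from 0.01 to 2.15. The list had 4 genes above 0 and 4 below in the first comparison and 5 above and 3 below in the second, with a median of 0.10 in both.

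Secreted inhibitors of angiogenesis rose in 2 of 9 tested members in Injury against Sham, the thrombospondin gene Thbs2 (1.85 ± 0.37) and Col18a1, whose product yields endostatin (0.59 ± 0.13), and the same genes fell in Sacral NC against Injury (−1.92 ± 0.37 and −0.85 ± 0.13), with adjusted p from 0.00965 to 0.0385 by edgeR. The list's median log2 changes were 0.61 and −0.69. The count in Injury against Sham was 1 without Sham 1 and 0 without Sham 2, Sham 3 or any Injury library, and 4 without Sacral NC 2. The count in Sacral NC against Injury was 4 without Sacral NC 2 and 1 without Injury 2, Injury 3 or Sacral NC 1. Of 12 genes of tip cells and sprouting, 1 rose in Injury against Sham, Nid2 of the basement membrane (0.77 ± 0.15, adjusted p = 0.0279), and it fell in Sacral NC against Injury (−1.002 ± 0.15, adjusted p = 0.00937), where Notch1 rose (0.44 ± 0.11, adjusted p = 0.0498). Median log2 changes of these 12 genes were −0.20 and 0.02. The count of 1 was 0 without any 1 of the Sham or Injury libraries and 2 without Sacral NC 2, and the count of 2 was 1 without any 1 of the Sham libraries, Injury 1, Injury 3, Sacral NC 1 or Sacral NC 3.

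Vegfa, Angptl4 and Apln are among the genes that low oxygen is known to induce. Of 20 other such genes, 2 rose and 0 fell in Injury against Sham, Ndufa4l2, a mitochondrial protein gene also used as a pericyte marker (2.00 ± 0.20, adjusted p = 0.00573 by edgeR), and P4ha1, which hydroxylates collagen (1.00 ± 0.17, adjusted p = 0.0194). In Sacral NC against Injury, Ndufa4l2 fell (−1.86 ± 0.20, adjusted p = 0.00534), while Ndrg1, a stress-induced gene (1.26 ± 0.26, adjusted p = 0.0292), and Mxi1, a repressor related to MYC (0.56 ± 0.12, adjusted p = 0.0365), rose. The list's median log2 changes were 0.03 and −0.02. The count of 2 was 1 without any 1 Sham library, Injury 2 or Injury 3 and 4 without Sacral NC 2, and the count of 3 was 6 without Sacral NC 2 and 1 without Sham 3, Injury 1, Injury 3, Sacral NC 1 or Sacral NC 3. Between Sacral NC and Sham edgeR called 0 genes of these 6 lists, and 0 % of all genes. At an unadjusted p under 0.05 by edgeR there were 2 of 20 hypoxia genes, 1 of 9 inhibitors and 1 of 12 tip cell genes. The other 3 lists had 0, beside 7.94 % of all genes.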

How the data were processed

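The organism field and the build named in the submitters' processing notes, GRCm38.p6, are mouse, while all 21124 identifiers are rat Ensembl identifiers, so the tables were read as rat and no mouse sequence was used. HISAT2 2.0.5 is named in the submitters' processing notes. The counting tool, strand setting and rat build have no mention in these sources. Each of the 3 deposited tables holds raw read counts of 6 libraries, and, per the file headers, the authors' log2 fold change and p-values. Libraries present in 2 tables had 0 differing values, and 9 libraries were joined. Replicates are separate samples per the titles, and no label says whether each is 1 animal, so p-values measure the spread between these samples. No replicate pair was alike within counting noise.

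edgeR 4.0.16 (R 4.3.3) fitted all 9 libraries at once, with a mean per group, TMM scaling, the default low-count filter (15509 genes kept) and a robust quasi-likelihood F-test. SE was derived from the F statistic. DESeq2 1.42.0 and other settings were alternatives, and the fit was tested on simulated data. Members, 6 pathway lists and 9 marker lists were chosen with earlier results of these data known. All members are named. From a list, called genes or up to 3 with the smallest p are named, in part here, and the rule for most similar genes applied to called members, of which there were 0. Same-numbered libraries were not paired.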

Additional observations from a re-analysis of the deposited data

How the results depend on the processing

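The count of the 10 genes called by edgeR stayed at 0 in every comparison under RLE scaling, TMM without collagen genes, both other low-count filters and each score covariate. DESeq2 called 2 in Injury against Sham and 2 in Sacral NC against Injury, a fit of only the groups compared called 1 in Injury against Sham, and leaving out 1 library gave 0 to 1 in Sacral NC against Injury. With a replicate block the counts were 0, 0 and 0. Deviations of same-numbered libraries from their group means had correlations from −0.55 to 0.62, and those of other pairs from −0.66 to 0.60. Over all genes the count in Injury against Sham was 687 and became 1584 by DESeq2, 1456 with only these groups, 267 with the block, 458 with the skeletal muscle score, 21 to 1329 without 1 library and 1 without the 4 libraries rich in skeletal muscle reads. Between Sacral NC and Injury it was 1080 and became 2268, 239, 471, 460, 285 to 3574 and 59. Between Sacral NC and Sham it was 0, with 62 by DESeq2 and 0 to 106 without 1 library. With the endothelial score, which follows the groups, 0 genes were called in every comparison. By DESeq2, 6 of 20 listed hypoxia, 5 of 10 inhibitor and 2 of 12 tip cell genes were called in Injury against Sham, beside 9.79 % of all genes. In Sacral NC against Injury the counts were 7, 4 and 4, with 5 of 12 related ligands and 3 of 14 PPAR genes, beside 14 % of all genes.

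Changes of direction were found in genes that did not pass, and the cause was not tested. In Injury against Sham, Angpt1 was 0.059 and Angpt2 0.24 without the 4 libraries, and with the endothelial score Vegfc was −0.15, Apln 0.84 and Fgf2 −0.49. In Sacral NC against Injury, Angpt2 was −0.0063 with RLE scaling, −0.00058 without collagen genes, −0.0055 unfiltered, −0.0028 by DESeq2, −0.031 with the replicate block and −0.47 without the 4 libraries. There Fgf2 was −0.015 with the skeletal muscle score and −0.44 without the 4 libraries, Angpt1 was −0.29 without them, and with the endothelial score Vegfb was 0.011, Vegfc 0.25 and Aplnr 0.17. In Sacral NC against Sham, Angpt2 was 0.013 and 0.019 with the skeletal and smooth muscle scores, and Angpt1 −0.23 without the 4 libraries. Leaving out 1 library in Injury against Sham gave −0.39 to 0.20 for Angpt1, −0.18 to 0.28 for Angpt2 and −0.15 to 0.024 for Aplnr. Between Sacral NC and Injury it gave −0.22 to 0.028 for Vegfc, −0.42 to 0.43 for Angpt1, −0.50 to 0.30 for Angpt2, −0.43 to 0.022 for Aplnr and −0.13 to 0.22 for Fgf2. Between Sacral NC and Sham it gave −0.064 to 0.21 for Vegfc, −0.12 to 0.17 for Pgf, −0.47 to 0.31 for Angpt1 and −0.54 to 0.30 for Angpt2. The score covariates and the fit without 4 libraries were chosen after seeing the data. With 3 libraries a group, small differences were not detectable, and Fgf2, at 49 to 85 reads, has the largest counting error.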
